A study of Mus musculus with 9 samples.

Results

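The mammalian circadian clock is a feedback loop in transcription, and its 10 genes examined here are Arntl, Clock, Per1, Per2, Per3, Cry1, Cry2, Dbp, Bhlhe40 and Bhlhe41. They were chosen by gene symbol, from the identifiers of the 55335 genes counted, and all 10 had enough reads to be among the 13611 genes tested. The RNA came from D2A1-d, a breast carcinoma cell line of the mouse, after transduction with a hairpin RNA. The groups were shMed1 #4 and shMed1 #2, which carry different short hairpin RNAs against Med1, and a non-targeting control hairpin (NTC), with 3 samples in each. The labels give the genotype as Med1 Knockdown for the hairpin groups and WT for NTC, and all cells grew in the same medium with 10% fetal bovine serum. The labels give no time of harvest and no step that synchronises clocks, so each value is a level averaged over whatever clock phases the cells held. In bulk RNA, fewer cells in a given state and less RNA per cell cannot be told apart.

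In the loop, the proteins CLOCK and BMAL1 (encoded by Arntl) form a heterodimer that binds E-box sequences and activates the Per, Cry, Dbp, Bhlhe40 and Bhlhe41 genes. PER and CRY proteins then enter the nucleus and repress CLOCK and BMAL1, and BHLHE40 and BHLHE41 (also called DEC1 and DEC2) compete for E-boxes. A further loop runs through ROR activators and REV-ERB repressors, which act at ROR response elements (RREs) such as those of Arntl. DBP and its relatives TEF and HLF activate genes that carry D-boxes, where NFIL3 represses. MED1 is part of Mediator, through which factors bound to DNA reach RNA polymerase II.

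Promoter sequences were read to show which of these elements the members carry near their start sites. RefSeq sequences (GRCm38.p6) of 250 bases before to 50 after a start site were found for 8 of the 10 members. Both strands were searched for the E-box CACGTG, which reads the same on each strand. They were also searched for its variant CACGTT, the E'-box, which appears as its reverse complement where it lies on the opposite strand, as in Cry1. Further motifs were the D-box forms TTATGTAA and TTACGTAA, the CA and TA forms of the RRE, and the cAMP response element TGACGTCA. No pair of these motifs was found overlapping in a member's window. Among 32851 such windows, 7.15% held the E-box, 4.68% the E'-box, 0.938% and 0.119% the D-box forms, 0.219% and 0.149% the RRE forms, and 1.79% the cAMP response element. The sequences below are those of the members with an RRE, a D-box or an E-box, since these are the elements through which the loops described above act. Capitals mark the motif, and each runs 5′ to 3′ on the gene's strand. Both RREs of Arntl lie within annotated exon sequence, so only 30 bases around each are given, from chr7:113207492-113207521 and chr7:113207528-113207557 (plus strand). The Per3 stretch is chr4:151044666-151044915 (minus strand), with D-boxes starting 205 and 158 bases before the start site. The Cry1 stretch is chr10:85185065-85185304 (minus strand), with an E'-box 79 and an E-box 60 bases before the start site. The Per1 stretch is chr11:69098699-69098947 (plus strand), with an E-box 166 bases before 1 of its 2 start sites, and the Bhlhe41 stretch is chr6:145865559-145865670 (minus strand), with an E-box 153 bases before it.
Arntl RRE, TA form: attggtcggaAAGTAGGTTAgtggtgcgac
Arntl RRE, CA form: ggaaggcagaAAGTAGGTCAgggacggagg
Per3 promoter: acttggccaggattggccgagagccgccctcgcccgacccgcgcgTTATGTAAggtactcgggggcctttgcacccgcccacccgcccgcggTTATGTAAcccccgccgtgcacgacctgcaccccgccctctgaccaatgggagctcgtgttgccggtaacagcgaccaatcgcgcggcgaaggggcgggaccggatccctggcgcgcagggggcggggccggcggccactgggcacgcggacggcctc
Cry1 promoter: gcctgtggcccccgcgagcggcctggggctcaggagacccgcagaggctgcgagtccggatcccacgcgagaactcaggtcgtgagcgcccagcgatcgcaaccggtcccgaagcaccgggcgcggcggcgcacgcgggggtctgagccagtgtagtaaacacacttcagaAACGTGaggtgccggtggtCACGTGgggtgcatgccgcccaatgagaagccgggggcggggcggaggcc
Per1 promoter: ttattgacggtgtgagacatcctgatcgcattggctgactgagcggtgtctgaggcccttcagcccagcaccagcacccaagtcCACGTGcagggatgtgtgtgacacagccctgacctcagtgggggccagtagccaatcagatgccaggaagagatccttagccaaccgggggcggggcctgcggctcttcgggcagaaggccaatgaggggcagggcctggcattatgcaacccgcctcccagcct
Bhlhe41 promoter: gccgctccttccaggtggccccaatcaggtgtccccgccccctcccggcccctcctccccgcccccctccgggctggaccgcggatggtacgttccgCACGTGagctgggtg
Cry2 carried 1 E'-box, 166 bases before its start site, and the windows of Clock and Dbp held none of these motifs. A match is a description of letters, and no match says only that these letters are not in this window.

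Med1 mRNA fell with both hairpins. Med1 measured 25.02, 26.6 and 25.5 CPM (counts scaled by library size, in the usual CPM unit) in the shMed1 #4 samples, 22.1, 25.2 and 24.7 CPM in the shMed1 #2 samples, and 85.6, 87.5 and 79.8 CPM in the NTC samples. Its log2 fold change was -1.71 with shMed1 #4 (SE 0.0767, adjusted p = 6.39e-34, edgeR's quasi-likelihood test with Benjamini-Hochberg adjustment over all 13611 genes, as for every adjusted p below) and -1.81 with shMed1 #2 (SE 0.0777, adjusted p = 5.67e-36). Between shMed1 #4 and shMed1 #2 it differed by 0.10 (95% interval -0.08 to 0.28, adjusted p = 0.461). Library totals were 8123918 to 8879982 counts, so that 3 counts correspond to 0.345 to 0.364 CPM, and the lowest count of a clock gene in any library was 40. The coefficient of variation among the 3 samples of a group was 1.27% to 16.4% over the clock genes, with a median of 6.87%. The labels call the samples of a group biological replicates, but do not state separate cultures or transductions. The p-values therefore measure the spread between these samples only, and that spread may be technical. Both hairpins were compared with the same 3 NTC libraries.

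Against NTC, 3 of the 10 clock genes moved the same way with both hairpins. Clock rose, and Arntl and Per3 fell. With shMed1 #4 these were the 3 genes called (1 higher, 2 lower) at an adjusted p under 0.05, beside 28.2% of all genes tested (14% higher and 14.1% lower). With shMed1 #2, 6 were called (2 higher, 4 lower), beside 43.7% of all genes (21.8% higher and 21.9% lower), the additional ones being Cry1, which rose, and Dbp and Bhlhe41, which fell. Both shares lie near the background, so the counts are not a result about the clock genes. The samples of 4 clock genes did not overlap between shMed1 #4 and NTC, beside 38.9% of all genes, and those of 7 did not between shMed1 #2 and NTC, beside 51.5%. Of all genes tested, 20.6% had calls of 1 direction in both hairpin comparisons. The median log2 fold change of the 10 was -0.01 with shMed1 #4 and -0.15 with shMed1 #2, and that of all genes was 0 in both comparisons. Per1, Per2, Cry2 and Bhlhe40 passed the test with neither hairpin.

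**Figure D1:**
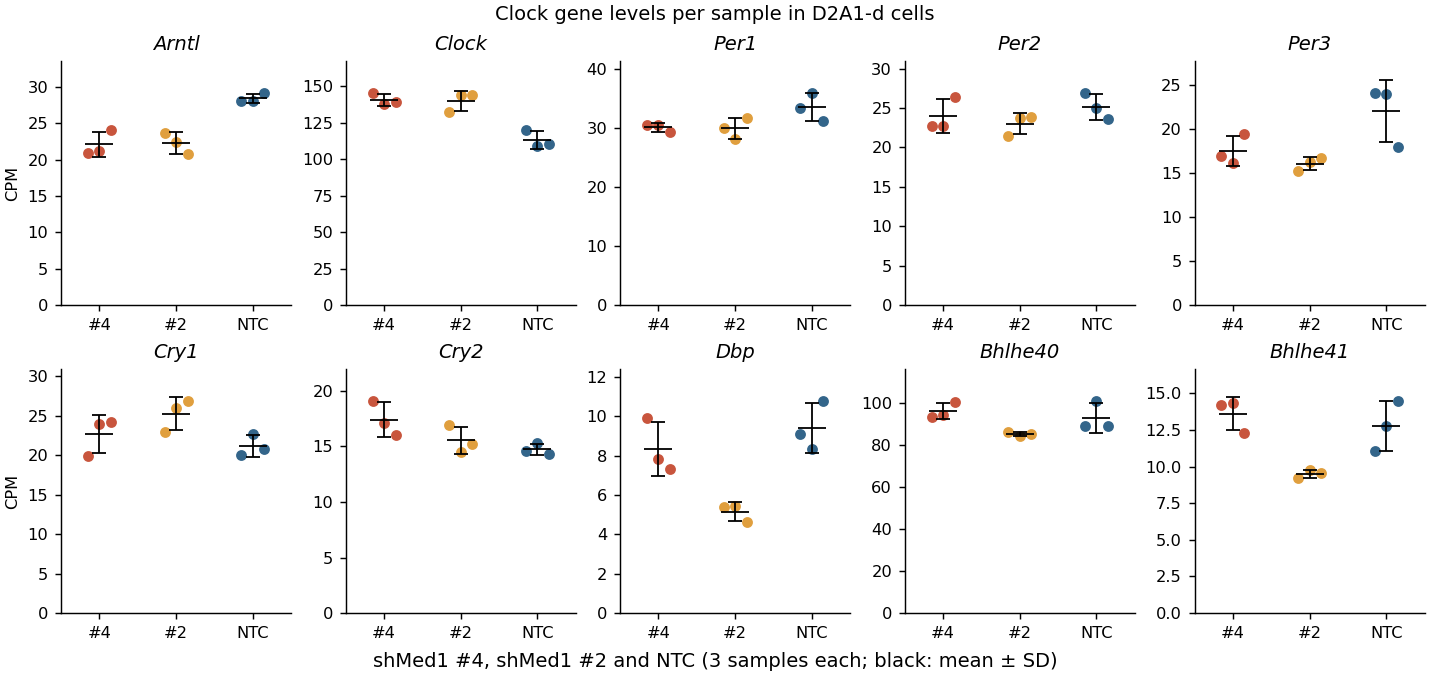
CPM of the 10 clock genes in each sample (points), by group, with the mean and SD of 3 samples in black; each panel has its own scale from 0. The hairpin samples of Clock sit between 132 and 146 CPM and those of NTC between 109 and 120 CPM, while the shMed1 #2 samples of Dbp, at 4.61 to 5.46 CPM, lie below those of both other groups.

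Among the activators, the 2 partners of the heterodimer moved in opposite directions. Clock (ENSMUSG00000029238.11, chr5:76209868-76304792, minus strand, GRCm38) encodes the partner that also acetylates histones. It measured 146, 138 and 139 CPM in the shMed1 #4 samples, 132, 144 and 144 CPM in the shMed1 #2 samples, and 120, 109 and 111 CPM in the NTC samples. Every hairpin sample was above every NTC sample. Clock rose by 0.32 on the log2 scale with shMed1 #4 (SE 0.0512, adjusted p = 5.29e-07) and by 0.31 with shMed1 #2 (SE 0.0511, adjusted p = 4.42e-07). Between shMed1 #4 and shMed1 #2 the log2 difference was 0.01 (95% interval -0.09 to 0.11, adjusted p = 0.931).

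Arntl (ENSMUSG00000055116.8, chr7:113207465-113314126, plus strand) encodes BMAL1, and its 2 RREs are printed above. Arntl measured 20.9, 21.2 and 24.1 CPM in the shMed1 #4 samples, 23.7, 22.4 and 20.7 CPM in the shMed1 #2 samples, and 28.1, 28.1 and 29.2 CPM in the NTC samples. Every hairpin sample was below every NTC sample, and the NTC samples lay closest together. Arntl fell by 0.37 on the log2 scale with shMed1 #4 (SE 0.0959, adjusted p = 0.00185) and by 0.35 with shMed1 #2 (SE 0.0954, adjusted p = 0.00143). Between shMed1 #4 and shMed1 #2 the log2 difference was -0.01 (95% interval -0.21 to 0.19, adjusted p = 0.951), and its sign turned under other scalings.

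The ratio of the partners' RNAs was higher in the hairpin groups. Per exon length, the ratio of Clock to Arntl was 3.81, 3.56 and 3.17 with shMed1 #4, 3.06, 3.52 and 3.81 with shMed1 #2, and 2.34, 2.13 and 2.08 in NTC. The means were 3.51 ± 0.32, 3.46 ± 0.38 and 2.18 ± 0.14 (SD, n = 3 each), in that order of groups. The hairpin and NTC samples did not overlap, which follows from Clock and Arntl each not overlapping, in opposite directions. The samples of shMed1 #4 and shMed1 #2 overlapped. On the log2 scale the ratio was higher by 0.68 with shMed1 #4 and by 0.66 with shMed1 #2. An exact permutation test of the samples gave p = 0.1 for each hairpin against NTC and 0.8 between the hairpins. With 3 samples per group, 0.1 is the smallest p possible, so that test could not pass. The ratio also combines genes already tested.

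**Figure D2:**
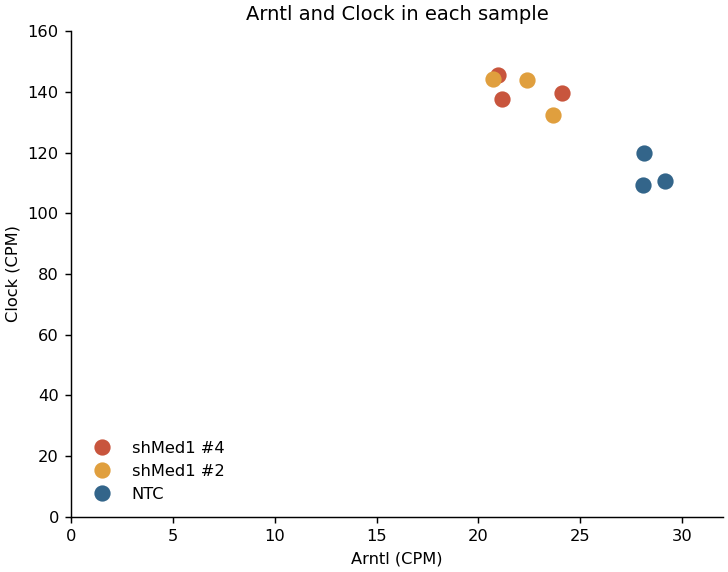
Arntl (x axis, CPM) against Clock (y axis, CPM) in the 9 samples, coloured by group. The 6 hairpin samples lie at 20.7 to 24.1 CPM of Arntl and the 3 NTC samples at 28.1 to 29.2 CPM, with lower Clock in NTC.

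Genes with profiles like those of the activators were sought by the root mean square difference, over the 9 samples, of log2 CPM relative to the NTC mean. The nearest to Clock were Ccm2 (0.041), Tceal8 (0.0415) and Ydjc (0.0493). The nearest to Arntl were Ftl1, the ferritin light chain (0.0564), Aldh18a1, an enzyme of proline synthesis (0.0565), and Pdia5, a protein disulfide isomerase (0.0571). These distances are a description of 9 libraries.

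Of the PER repressors, which carry the negative limb of the loop, Per3 alone was called. Per3 (ENSMUSG00000028957.12, chr4:151003652-151044665, minus strand) is the PER gene whose loss affects the mouse clock least, and its window holds the 2 D-boxes printed above. It measured 17.0, 16.1 and 19.5 CPM in the shMed1 #4 samples, 15.3, 16.3 and 16.7 CPM in the shMed1 #2 samples, and 24.1, 24.0 and 17.9 CPM in the NTC samples. NTC replicate 3 was far below the other NTC samples, inside the range of shMed1 #4 and above all samples of shMed1 #2. Per3 fell by 0.45 on the log2 scale with shMed1 #2 (SE 0.113, adjusted p = 0.000584) and by 0.32 with shMed1 #4 (SE 0.111, adjusted p = 0.0199). The call with shMed1 #4 was lost without NTC replicate 1 (-0.25, adjusted p = 0.14), without NTC replicate 2 (-0.26, 0.135), without shMed1 #4 replicate 1 (-0.30, 0.0718), without shMed1 #4 replicate 2 (-0.27, 0.106), and in DESeq2 (0.0815). The call with shMed1 #2 held in all alternatives run. Nearest to Per3 in profile were Ccdc163 (root mean square difference 0.0562), Col5a1, a collagen chain (0.0866), and Gtpbp2 (0.0926).

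Per1 and Per2, the PER genes that respond to cAMP and glucocorticoid signals, passed the test with neither hairpin. Per1 (ENSMUSG00000020893.17, chr11:69095217-69109960, plus strand) measured 30.5, 30.4 and 29.2 CPM in the shMed1 #4 samples, 30, 28.1 and 31.6 CPM in the shMed1 #2 samples, and 33.3, 35.9 and 31.1 CPM in the NTC samples. The shMed1 #4 samples were below all NTC samples, but the log2 fold change was -0.15 (95% interval -0.33 to 0.02, adjusted p = 0.183). With shMed1 #2, which overlapped NTC, it was -0.16 (95% interval -0.33 to 0.01, adjusted p = 0.12), and it was called only with library size as the sole scaling (-0.21, adjusted p = 0.0391). Per2 (ENSMUSG00000055866.9, chr1:91415982-91459324, minus strand) measured 22.7, 22.7 and 26.4 CPM in the shMed1 #4 samples, 21.5, 23.7 and 23.9 CPM in the shMed1 #2 samples, and 26.9, 24.9 and 23.6 CPM in the NTC samples. All 3 groups of Per2 overlapped, with log2 fold changes of -0.07 for shMed1 #4 (95% interval -0.26 to 0.12, adjusted p = 0.651) and -0.13 for shMed1 #2 (95% interval -0.32 to 0.07, adjusted p = 0.3).

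The cryptochromes, the strongest repressors of the heterodimer, gave 1 call, that of Cry1 with shMed1 #2. Cry1 (ENSMUSG00000020038.10, chr10:85131700-85185064, minus strand) measured 19.9, 23.9 and 24.2 CPM in the shMed1 #4 samples, 22.9, 26.0 and 26.9 CPM in the shMed1 #2 samples, and 20, 22.7 and 20.8 CPM in the NTC samples. The shMed1 #2 samples were all above NTC, the nearest pair being 22.9 and 22.7 CPM, while shMed1 #4 overlapped NTC. Cry1 rose by 0.25 on the log2 scale with shMed1 #2 (SE 0.101, adjusted p = 0.0332), and with shMed1 #4 its value was 0.10 (95% interval -0.10 to 0.30, adjusted p = 0.516). The Cry1 call is the least firm of the 6 with shMed1 #2. It was lost with upper quartile scaling (adjusted p = 0.0637), library size alone (0.091), no filter on low counts (0.0501) and DESeq2 (0.0921), and on leaving out replicate 1 (0.125) or 3 (0.0829) of NTC, or replicate 2 (0.0922) or 3 (0.14) of shMed1 #2. Cry2 (ENSMUSG00000068742.11, chr2:92403646-92434043, minus strand) measured 19.1, 17.1 and 16 CPM in the shMed1 #4 samples, 16.9, 14.5 and 15.2 CPM in the shMed1 #2 samples, and 14.5, 15.3 and 14.4 CPM in the NTC samples. The shMed1 #4 samples of Cry2 were all above NTC, with a log2 fold change of 0.24 (95% interval 0.01 to 0.47) that did not pass the adjustment (adjusted p = 0.121). With shMed1 #2, which overlapped NTC, Cry2 had 0.08 (95% interval -0.16 to 0.31, adjusted p = 0.633).

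Dbp, Bhlhe40 and Bhlhe41 differed between the hairpins. These were the 3 clock genes called between shMed1 #4 and shMed1 #2, all higher with shMed1 #4, beside 26% of all genes called in either direction, 12.9% called higher and 13.1% called lower. The samples of 3 clock genes did not overlap between shMed1 #4 and shMed1 #2, beside 37.5% of all genes. The median of the 10 was 0.10 and that of all genes 0.01. A count of 3 in 10 is near the background share. The Per and Cry genes, which the same heterodimer activates, were not called between the hairpins.

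Dbp (ENSMUSG00000059824.12, chr7:45705088-45710203, plus strand) encodes a D-box activator. It measured 9.89, 7.82 and 7.30 CPM (85, 65 and 63 counts) in the shMed1 #4 samples, 5.40, 5.46 and 4.61 CPM (47, 47 and 40 counts) in the shMed1 #2 samples, and 9.09, 8.32 and 10.8 CPM in the NTC samples (75, 69 and 93 counts). The shMed1 #2 samples lay below all others, and shMed1 #4 overlapped NTC. Dbp fell by 0.87 on the log2 scale with shMed1 #2 (SE 0.175, adjusted p = 1.75e-05), the largest log2 change of a clock gene against NTC. With shMed1 #4 it had -0.17 (95% interval -0.49 to 0.14, adjusted p = 0.451). Between shMed1 #4 and shMed1 #2 it was higher by 0.69 (SE 0.177, adjusted p = 0.00141). Sphk2, on the opposite strand, overlaps 539 bases of Dbp exon (18% of its length), and the sources used do not say whether reads were counted by strand. Sphk2 fell by 0.26 with shMed1 #4 (adjusted p = 0.0128) and by 0.22 with shMed1 #2 (adjusted p = 0.026), and had -0.04 between shMed1 #4 and shMed1 #2 (adjusted p = 0.779).

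Bhlhe41 (ENSMUSG00000030256.11, chr6:145858243-145865558, minus strand) encodes DEC2 and was likewise lowest with shMed1 #2. It measured 14.2, 14.3 and 12.3 CPM in the shMed1 #4 samples, 9.20, 9.75 and 9.57 CPM in the shMed1 #2 samples, and 11.03, 12.8 and 14.5 CPM in the NTC samples. The shMed1 #2 samples were again below all others. Bhlhe41 fell by 0.43 on the log2 scale with shMed1 #2 (SE 0.138, adjusted p = 0.00819), a call lost without NTC replicate 3 (-0.32, adjusted p = 0.0917). With shMed1 #4 it had 0.09 (95% interval -0.17 to 0.35, adjusted p = 0.661). Between shMed1 #4 and shMed1 #2 it was higher by 0.52 (SE 0.137, adjusted p = 0.00223). Gm43909, a transcript on the opposite strand, overlaps 1280 bases (19%) of its exons. Gm43909 had a log2 difference of 0.53 between shMed1 #4 and shMed1 #2 that did not pass (adjusted p = 0.0643). Without strand, reads within the shared bases cannot be assigned to either gene, and the effect on the Bhlhe41 counts was not tested.

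Bhlhe40 (ENSMUSG00000030103.11, chr6:108660629-108666925, plus strand) encodes DEC1 and had a smaller difference. It measured 93.3, 94.4 and 100 CPM in the shMed1 #4 samples, 86.2, 84.1 and 85.3 CPM in the shMed1 #2 samples, and 88.8, 101 and 88.8 CPM in the NTC samples. The shMed1 #2 samples were the lowest in each comparison, and shMed1 #4 overlapped NTC. The log2 fold change was 0.05 with shMed1 #4 (adjusted p = 0.57) and -0.12 with shMed1 #2 (95% interval -0.24 to -0.01, adjusted p = 0.0705). With shMed1 #2 it was called under upper quartile scaling (adjusted p = 0.0223) and library size alone (0.0103), and without NTC replicate 1 (0.0464) or NTC replicate 3 (0.0443). Between shMed1 #4 and shMed1 #2 it was higher by 0.17 (SE 0.0567, adjusted p = 0.0164), which was lost without shMed1 #2 replicate 2 (0.0609), without shMed1 #4 replicate 3 (0.102) and in DESeq2 (0.0623).

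**Figure D3:**
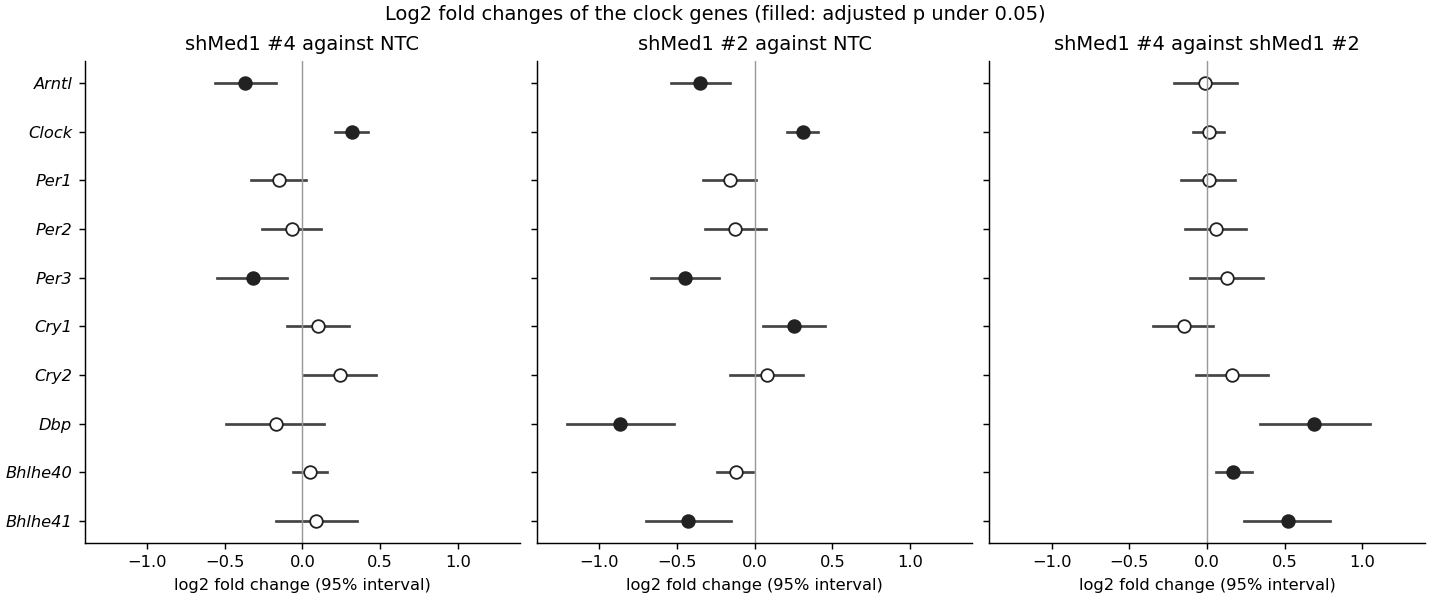
Log2 fold changes of the 10 clock genes with 95% intervals in the 3 comparisons, filled where the adjusted p was under 0.05. Arntl and Clock sit at -0.37 and 0.32 with shMed1 #4 and at -0.35 and 0.31 with shMed1 #2, while Dbp and Bhlhe41 separate the hairpins, by 0.69 and 0.52.

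Levels can be compared roughly between genes per exon length, as CPM per kb of exon. The length is that of all annotated exons of a gene together, not of the transcript expressed. In all 3 groups the order began with Bhlhe40, Clock, Cry1, Per1, Per2 and Arntl. Bhlhe40 averaged 20.4 CPM per kb with shMed1 #4, 18.1 with shMed1 #2 and 19.7 ± 1.48 in NTC (SD, n = 3). Clock averaged 10.3, 10.2 and 8.25 ± 0.429 CPM per kb in the same order of groups, above Arntl at 2.94, 2.96 and 3.78 ± 0.0828. The lower end was crowded. In NTC, Dbp averaged 3.14 ± 0.419, Cry2 2.33 ± 0.0794, Per3 2.29 ± 0.367 and Bhlhe41 1.90 ± 0.256 CPM per kb. Within NTC the samples of the neighbours Cry1 and Per1, Cry2 and Per3, and Per3 and Bhlhe41 overlapped, and other neighbours did not. With shMed1 #4 the overlapping neighbours were Arntl and Dbp, Dbp and Cry2, and Bhlhe41 and Per3. With shMed1 #2 they were Dbp and Per3, as Dbp there averaged 1.72 CPM per kb and stood below Cry2, at 2.46.

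**Figure D4:**
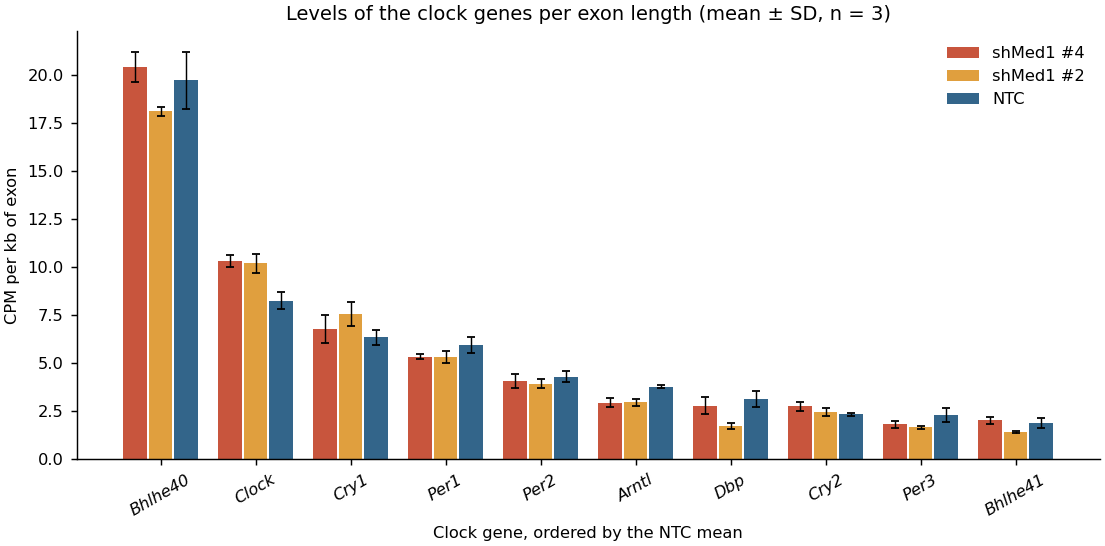
Mean level of each clock gene (bars, CPM per kb of exon) with SD over 3 samples, ordered by the NTC mean. Bhlhe40 is highest at 20.4 CPM per kb with shMed1 #4, 18.1 with shMed1 #2 and 19.7 in NTC, and Bhlhe41 averages 2.02, 1.41 and 1.90.

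The other factors of the loops gave 5 calls among 11 tested of 14 with shMed1 #4 (2 higher, 3 lower), 5 with shMed1 #2 (2 higher, 3 lower), and 3 between shMed1 #4 and shMed1 #2 (3 higher, 0 lower). Without shMed1 #4 replicate 1, 3 were called with shMed1 #4. Beside them stand 28.2%, 43.7% and 26% of all genes called in these comparisons, so with so few genes the counts are not a result about the list. Median log2 fold changes were -0.05, -0.11 and 0.10, and those of all genes 0, 0 and 0.01. The largest changes were in Hlf, which encodes a D-box activator related to DBP. Hlf measured 10.7, 8.67 and 9.85 CPM in the shMed1 #4 samples, 4.02, 3.13 and 2.42 CPM in the shMed1 #2 samples, and 23.3, 21.9 and 26.9 CPM in the NTC samples, with no overlap between any groups. Hlf fell by 1.30 on the log2 scale with shMed1 #4 (SE 0.129, adjusted p = 2.11e-14) and by 2.91 with shMed1 #2 (SE 0.184, adjusted p = 2.26e-28). It was higher by 1.61 with shMed1 #4 than with shMed1 #2 (adjusted p = 3.15e-11). Tef, the third D-box activator, fell by 0.29 with shMed1 #2 (adjusted p = 4.77e-05) and had -0.13 with shMed1 #4 (adjusted p = 0.0829), which was called with library size alone (-0.16, 0.0374) and without shMed1 #4 replicate 3 (-0.19, 0.0202). Nfil3, the D-box repressor, had -0.07 with shMed1 #4 (adjusted p = 0.569) and -0.09 with shMed1 #2 (adjusted p = 0.404). With shMed1 #2, the D-box activators Hlf, Dbp and Tef were called lower, in that order of size, while Nfil3 did not pass. Beside them, 21.9% of all genes were called lower with shMed1 #2. Tef and Nfil3 were picked with their values known, so this is not a result about D-box factors.

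**Figure D5:**
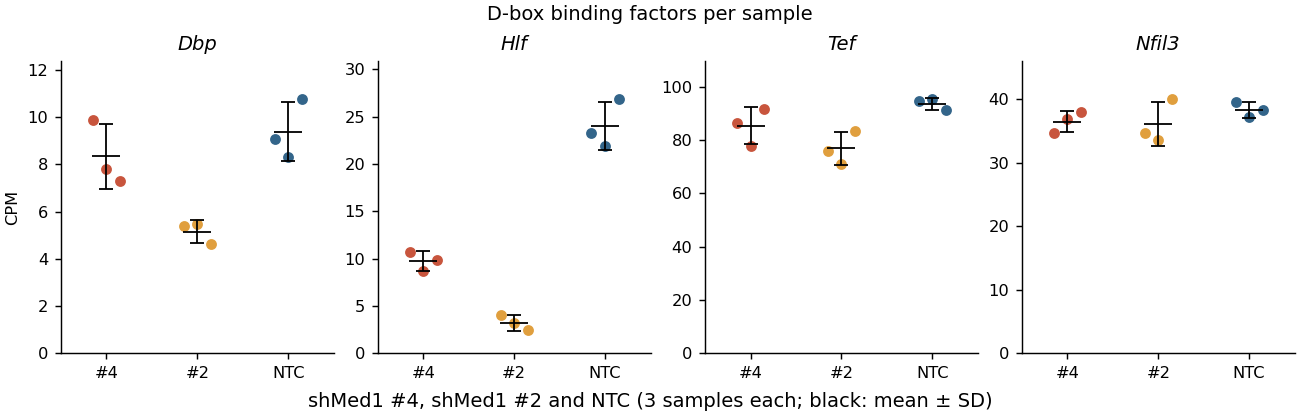
CPM of the D-box factors Dbp, Hlf, Tef and Nfil3 in each sample (points), by group, with mean and SD of 3 samples; each panel has its own scale from 0. Hlf separates the groups completely, at 8.67 to 10.7 CPM with shMed1 #4, 2.42 to 4.02 with shMed1 #2 and 21.9 to 26.9 in NTC, and Nfil3 overlaps in all groups.

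Among the factors that bind RREs, the activator gene Rora had 2 to 10 counts per library and was not tested. Nr1d1, which encodes the repressor REV-ERB alpha, measured 31.4, 28.6 and 30.03 CPM in the shMed1 #4 samples, 23.7, 25.5 and 25.01 CPM in the shMed1 #2 samples, and 25.5, 24.0 and 24.3 CPM in the NTC samples. Nr1d1 rose by 0.29 with shMed1 #4 (adjusted p = 0.0107, and 0.0581 without shMed1 #4 replicate 1), while shMed1 #2 had 0.01 (adjusted p = 0.946). Its relative Nr1d2 had -0.05 with each hairpin (adjusted p = 0.597 with shMed1 #4 and 0.514 with shMed1 #2). Tipin, the partner of the replication-fork protein TIMELESS, rose by 0.32 with shMed1 #4 (adjusted p = 2.58e-05) and by 0.22 with shMed1 #2 (adjusted p = 0.00277). Cipc, which encodes a CLOCK-interacting repressor, rose by 0.35 with shMed1 #2 (adjusted p = 0.000147) and had 0.17 with shMed1 #4 (adjusted p = 0.102). Ciart, another repressor of the heterodimer, fell by 0.35 with shMed1 #4 (adjusted p = 0.023) and had -0.21 with shMed1 #2 (adjusted p = 0.146). The Ciart call was lost without NTC replicate 2 (0.189), shMed1 #4 replicate 1 (0.0608) or shMed1 #4 replicate 2 (0.143), and in DESeq2 (0.0833). Npas2, which can stand in for Clock, had 0 to 2 counts per library. Arntl2, which can stand in for Arntl, had 0.04 with shMed1 #4 (adjusted p = 0.885) and -0.33 with shMed1 #2 (adjusted p = 0.081, and 0.0439 with library size alone).

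Kinases and ubiquitin enzymes that set the stability of clock proteins gave 4 calls among 16 tested of 17 with shMed1 #4 (1 higher, 3 lower) and 7 with shMed1 #2 (4 higher, 3 lower), with medians of -0.02 and 0.01. These shares are near the 28.2% and 43.7% of all genes called, and are not a result about the list. Without NTC replicate 2 or shMed1 #2 replicate 2 the calls with shMed1 #2 were 3. Gsk3b, a kinase with several clock substrates, fell by 0.18 with shMed1 #4 (adjusted p = 0.00369) and by 0.28 with shMed1 #2 (adjusted p = 3.48e-06). Of the casein kinase 2 subunits, Csnk2a1 was called in no comparison. Csnk2a2 rose by 0.40 with shMed1 #2 (adjusted p = 6.19e-13) and had -0.09 with shMed1 #4 (adjusted p = 0.156). Csnk2b rose by 0.21 with shMed1 #4 (adjusted p = 0.00102). Fbxw11, which targets PER proteins, fell by 0.21 with shMed1 #4 (adjusted p = 0.00143). Prkaa2, a catalytic subunit of the energy sensor AMPK, was called lower with shMed1 #2 at the margin (-0.37, adjusted p = 0.046). The call was lost without NTC replicate 1 or 2, any shMed1 #2 replicate or shMed1 #4 replicate 1 (0.0503 to 0.156). Counting other processing as well, the Prkaa2 call was lost in 8 of 18 alternatives.

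Inputs that act on Per1 and Per2, the CREB pathway and the glucocorticoid receptor, gave 3 calls of 10 with shMed1 #4 (2 higher, 1 lower), 5 with shMed1 #2 (2 higher, 3 lower) and 3 between shMed1 #4 and shMed1 #2 (3 higher, 0 lower), with medians of 0.06, -0.09 and 0.10. These counts are near the shares of all genes called, 28.2%, 43.7% and 26%, and are not a result about the inputs. The count with shMed1 #4 was 1 without NTC replicate 2. The count between the hairpins was 1 without shMed1 #2 replicate 1, shMed1 #2 replicate 2 or shMed1 #4 replicate 3. Atf1, a CREB relative, fell by 0.33 with shMed1 #4 (adjusted p = 2.2e-06) and by 0.23 with shMed1 #2 (adjusted p = 0.000353). Nr3c1, the glucocorticoid receptor, rose by 0.26 with shMed1 #2 (adjusted p = 1.22e-06) and by 0.16 with shMed1 #4 (adjusted p = 0.00515, and 0.0605 without NTC replicate 2). Crtc1, a CREB coactivator, fell by 0.38 with shMed1 #2 (adjusted p = 7.55e-06) and had -0.16 with shMed1 #4 (adjusted p = 0.0817, called in 1 of 18 alternatives). Sik1, a kinase that inhibits CRTC proteins, fell by 0.25 with shMed1 #2 (adjusted p = 0.0145, and 0.0578 without shMed1 #2 replicate 3). Its call was lost in 2 of 18 alternatives. Crtc2 was called higher with shMed1 #4 (0.16, adjusted p = 0.0234), which was lost without NTC replicate 2 (0.126), shMed1 #4 replicate 1 (0.0738) or shMed1 #4 replicate 3 (0.108). Counting other processing as well, the Crtc2 call was lost in 5 of 18 alternatives.

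Genes commonly under clock control gave 5 calls among 9 tested of 11 with shMed1 #4 (2 higher, 3 lower) and 4 with shMed1 #2 (2 higher, 2 lower), with medians of -0.08 and -0.10. Of all genes, 28.2% were called with shMed1 #4 and 43.7% with shMed1 #2, and with 9 genes tested the counts are not a result about the outputs. Noct, which encodes nocturnin, rose by 0.59 with shMed1 #4 (adjusted p = 5.29e-08) and by 0.75 with shMed1 #2 (adjusted p = 2.49e-11). Cdkn1a, the cell cycle inhibitor p21, rose by 0.61 with shMed1 #4 (adjusted p = 1.59e-07) and by 0.87 with shMed1 #2 (adjusted p = 2.29e-13). Por, the reductase that supplies electrons to cytochromes P450, fell by 0.23 with shMed1 #4 (adjusted p = 0.000132) and by 0.64 with shMed1 #2 (adjusted p = 5.86e-19). Pfkfb3, a regulator of glycolysis, fell by 0.31 with shMed1 #4 (adjusted p = 0.000865). With shMed1 #2 it was called lower (-0.18, adjusted p = 0.0413), which was lost without any of the NTC replicates or shMed1 #2 replicates 2 or 3 (0.0534 to 0.145). Counting other processing as well, this call was lost in 7 of 18 alternatives. Nampt, an enzyme of NAD salvage, fell by 0.24 with shMed1 #4 (adjusted p = 8.27e-05) and had -0.11 with shMed1 #2 (adjusted p = 0.0715, and 0.0186 under upper quartile scaling). With shMed1 #2 it was called in 2 of 18 alternatives.

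Markers of cell state differed between the groups beside these genes. The sum of 10 epithelial markers was 41.6 to 52.1 CPM with shMed1 #4, 19.9 to 22.8 CPM with shMed1 #2 and 56.9 to 58.6 CPM in NTC. Of these only Krt8 and Krt18 had enough counts to be tested, Epcam, Krt5, Cldn3 and Cldn4 were at 0 in all libraries, and Cdh1 had 0 to 2 counts, so the epithelial label of a carcinoma line rests on few transcripts. The 7 mesenchymal markers, all tested, summed to 5000 to 5200 CPM with shMed1 #4, 4810 to 5020 CPM with shMed1 #2 and 4200 to 4390 CPM in NTC. Nearly all of that sum was Vim and Fn1, which averaged 2440 and 2400 CPM in the shMed1 #4 samples, 2780 and 1920 CPM in the shMed1 #2 samples, and 1870 and 2220 CPM in NTC. Vim rose with both hairpins, while Fn1 rose by 0.11 with shMed1 #4 (adjusted p = 0.0161) and fell by 0.20 with shMed1 #2 (adjusted p = 4.56e-06). Cdh2, at 1.64, 5.00 and 3.23 CPM on average in the same order of groups, was called lower with shMed1 #4 and higher with shMed1 #2, and Zeb1, Zeb2, Twist1 and Snai2 were not called. The 6 fibroblast markers summed to 114 to 126, 80.9 to 89 and 173 to 188 CPM, and the 9 leukocyte markers, 4 of them at 0 throughout, to 66.2 to 73.8, 57 to 61 and 74.7 to 88.2 CPM, in the same order of groups. The 4 endothelial markers summed to 0.348 to 1.04 CPM over all libraries. Most of the leukocyte sum was Cd14, at 55.2 CPM on average with shMed1 #4, 42.9 with shMed1 #2 and 62.9 in NTC. The other leukocyte markers tested, Csf1r and Cd68, were called in no comparison. As for Dbp, Bhlhe41 and Hlf, the epithelial, fibroblast and leukocyte sums were lowest with shMed1 #2. The part of these markers in the clock results was not tested.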

How the data were processed

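RNA of 9 samples had been sequenced on a BGISEQ-500 instrument from total RNA, per the labels' protocols. The authors deposited raw counts per gene, 1 file per sample, and the submitters' processing notes name STAR, HTSeq and GRCm38 (mm10). Their versions, the annotation release and whether strand was used in counting are not given in the sources used. Symbols, positions and exon lengths came from a GENCODE release for GRCm38, in which 54587 identifiers matched by version and 55154 when it was dropped, and 0 lines named no gene.

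From the counts, genes were kept by filterByExpr with the group as factor (13611 of 55335), scaled by TMM (factors 0.982 to 1.02) and tested with edgeR 4.0.16 (R 4.3.3), quasi-likelihood test, robust fit, 1 coefficient per group over all 9 samples, Benjamini-Hochberg adjustment over all genes, called under 0.05. The common biological coefficient of variation was 3.68%. CPM values use the scaled library sizes, and a floor of 3 counts covers counting error only. Replicates differed beyond sampling noise, with a chi-square of 1.55 to 2.53 per degree of freedom, and were counted as separate samples. The procedure was tested on simulated data.

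The members and gene lists were chosen with earlier results of these data known. Named genes are all members, list members called with both hairpins in 1 direction or with up to the 3 largest called changes per list and comparison, and Med1. Tef, Nfil3, Nr1d2, Arntl2, Npas2, Rora, Sphk2 and Gm43909 are outside it and were picked with their values known. A few genes covered by the rule are left out of the text. Alternatives were scaling by RLE, by upper quartile or by library size alone, a stricter filter or none, DESeq2 1.42.0, a non-robust fit, a fit of the compared groups only, a replicate block, and leaving out each library. Figures were drawn with matplotlib 3.10.9.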

Additional observations from a re-analysis of the deposited data

Results flagged for a closer look

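Of the clock genes, 3 differed between the hairpins under the same contrast with NTC, by the test of shMed1 #4 against shMed1 #2 itself (edgeR's quasi-likelihood test, 3 samples each). The log2 difference, shMed1 #4 minus shMed1 #2, was 0.69 for Dbp, 0.52 for Bhlhe41 and 0.17 for Bhlhe40. Among the other genes of the clock lists, 12 differed in that test, 8 higher and 4 lower with shMed1 #4. The higher ones were Hlf at 1.61, Por at 0.41, Nr1d1 at 0.28, Crtc3 at 0.27, Crtc2 at 0.26, Crtc1 at 0.22, Timeless at 0.22 and Csnk2b at 0.20. The lower ones were Csnk2a2 at -0.49, Cdkn1a at -0.26, Fbxw11 at -0.21 and Nampt at -0.13. They were 3 in each list, and the lists had 11, 16, 10 and 9 genes tested. For comparison, 26% of all genes tested differed between the hairpins. With so few genes, these counts and the 3 of 10 clock genes are not a result about the clock genes or the lists. Some of these calls were lost without 1 library, with adjusted p up to the value given. They were Bhlhe40 (0.102, shMed1 #2 replicate 2 or shMed1 #4 replicate 3), Crtc3 (0.15, any shMed1 #2 replicate or shMed1 #4 replicates 2 or 3) and Crtc1 (0.1, shMed1 #2 replicates 1 or 2, or shMed1 #4 replicates 1 or 3). Nampt (0.193, shMed1 #2 replicates 2 or 3, or shMed1 #4 replicates 1 or 3) and Cdkn1a (0.167, shMed1 #2 replicate 2 or shMed1 #4 replicate 1) lost theirs too. So did Timeless (0.111, shMed1 #2 replicate 2 or shMed1 #4 replicate 3) and Nr1d1 (0.0728, shMed1 #2 replicate 1 or shMed1 #4 replicate 1). Counting the other scalings, filters and fits as well, Nampt lost its call in 9 of 18 alternatives, Crtc3 in 7 and Crtc1 in 5. Bhlhe40, Cdkn1a and Nr1d1 lost theirs in 3 each, and Timeless in 2.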

How the results depend on the processing

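Arntl and Clock kept their calls and directions with both hairpins in all alternatives run, and so did Dbp with shMed1 #2 and between the hairpins, Per3 with shMed1 #2 and Bhlhe41 between the hairpins. Over all alternatives, 2 to 3 clock genes were called with shMed1 #4, 5 to 7 with shMed1 #2, and 2 to 3 between them. The lost and gained calls of single clock genes stand beside their values in the report. Leaving out 1 library gave 3 to 6 calls among other loop factors and 1 to 3 among inputs with shMed1 #4, 3 to 7 among kinases and ubiquitin enzymes with shMed1 #2, and between the hairpins 1 to 3 among inputs and 1 to 4 among outputs. With no filter, 4 kinases and ubiquitin enzymes were called with shMed1 #2. In DESeq2, 1 input and 1 output were called between the hairpins. The causes were not tested.

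Signs turned only for values near 0 that were not called. With upper quartile scaling, Nr1d1, Csnk2b and Fbxw11 had -0.02 each with shMed1 #2 and Arntl had 0 between the hairpins. With library size alone these were -0.04, -0.03, -0.04 and 0.01. Leaving out 1 library, the ranges with shMed1 #2 were -0.01 to 0.04 for Nr1d1, -0.06 to 0.05 for Csnk2b and -0.02 to 0.06 for Fbxw11, and with shMed1 #4 they were 0 to 0.19 for Bhlhe41 and 0 to 0.08 for Arntl2. Between the hairpins they were -0.08 to 0.03 for Arntl, -0.03 to 0.03 for Clock, -0.04 to 0.05 for Per1, -0.02 to 0.10 for Per2, -0.03 to 0.10 for Nfil3 and -0.03 to 0.03 for Nr1d2. Replicate numbers did not pair the samples: same-numbered samples of different groups had correlations of -0.0413 to 0.0416 in their deviations, in 9 pairs. With the replicate number as a block, 3, 6 and 3 clock genes were called in the comparisons of shMed1 #4 with NTC, shMed1 #2 with NTC and shMed1 #4 with shMed1 #2, and 3786, 5892 and 3461 genes in all. Depth limits Dbp most, with 40 to 93 counts per library.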
